A study of Homo sapiens with 74 samples.

Results

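Accessible chromatin was compared between 2 knockout clones of BCL7B and wild-type HAP1 cells, a human leukaemia-derived line with a nearly haploid genome. BCL7B clone 8 had 2 libraries, replicates 1 and 2, and was set against replicates 1 and 2 of wild-type clone C631. BCL7B clone 10 also had 2 libraries and was set against replicates 5 and 6 of the same wild-type clone. These 8 libraries, chosen by their labels, are a small share of the 74 samples of the series, which removes subunits of the BAF complexes one at a time. The first 4 belong to set 1, which holds most knockouts, and the other 4 to set 2, which holds 3 clones. The sets were inferred from the titles and are not dates or batches named by the labels. Each clone is a single line carrying its own history, and the labels give no other treatment, so loss of BCL7B and other changes of a clone cannot be told apart within 1 comparison. The clone comparisons share no library.

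BCL7B is a small subunit of the BAF (SWI/SNF) complexes and a paralog of BCL7A and BCL7C. These complexes use ATP, through SMARCA4 or SMARCA2, to slide and evict nucleosomes, and come in canonical forms with ARID1A or ARID1B, a PBAF form with ARID2 and a non-canonical form with BRD9. ATAC-seq reads such changes directly, since a transposase cuts DNA where nucleosomes leave it exposed. The BCL7 proteins have no ATPase of their own, and which genomic sites need them is the question that the comparison addresses.

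Reads were counted over 145536 accessible regions of hg19, and 145532 of them were tested. Total counts were 10454248 and 10862856 in clone 8, against 10286301 and 7933613 in wild type of set 1. Clone 10 was sequenced less deeply, at 5403614 and 5085811 counts, against 7331537 and 6860815 in wild type of set 2. The libraries of clone 10 correlated at r = 0.900 in log2 CPM over regions of above-median accessibility, the lowest of 28 pairs, and those of clone 8 at 0.943. Levels below are CPM, read counts scaled to the effective (TMM) library size. A region is called where edgeR's quasi-likelihood test gave an adjusted p under 0.05. The labels do not say whether the libraries of a clone are separate cultures, and the p-values cover the spread between libraries alone. The region files carry no gene names and no annotation of hg19 was used here, so regions are named by position, as the files give it.

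Clone 8 differed from wild type at many sites and mostly upward. In clone 8, 7030 regions were called (4.83% of those tested), of which 5089 (3.50%) were higher and 1941 (1.33%) lower than in wild type of set 1. Of the calls, 4720 were at least 2-fold. The median log2 fold change was 1.15 among the higher regions and -1.23 among the lower ones. This split changed with the scale. The authors' normalized values put the median of all regions 0.145 higher on the log2 scale, and relative to that median 53.3% of 12206 called regions were lower. With all wild-type libraries pooled, 39.4% of 5262 calls were lower, against 27.6% in the comparison above. The count fell to 1500 when clone 8 replicate 1 was left out, 2215 when wild-type replicate 2 was and 3704 when wild-type replicate 1 was.

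**Figure D1:**
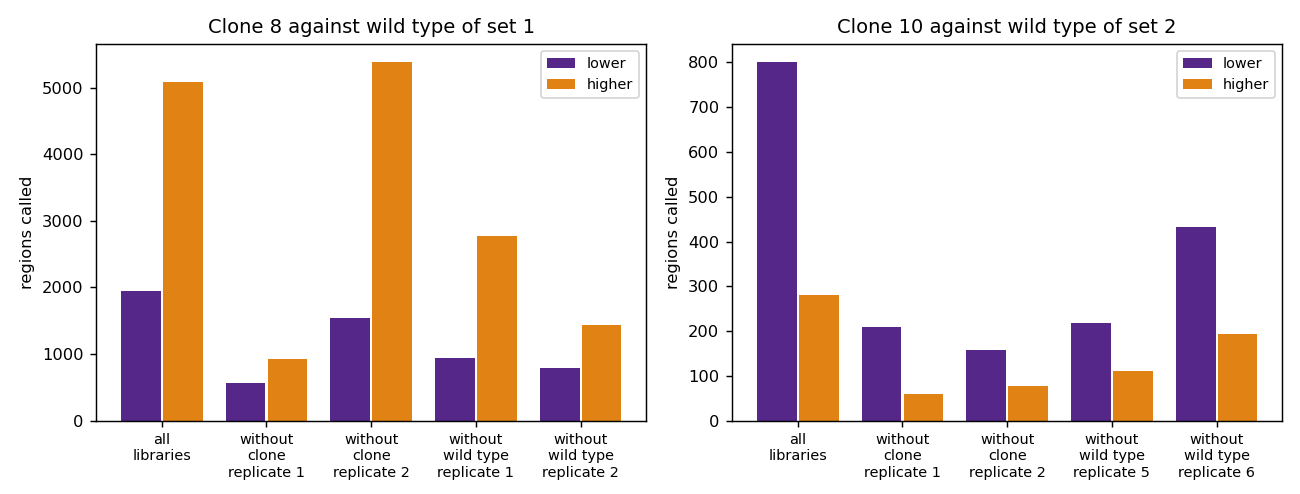
Number of regions called lower and higher (vertical axes, regions) for clone 8 (left) and clone 10 (right) with all libraries and without each library of the comparison in turn. Higher calls outnumber lower ones in every clone 8 bar pair, and lower calls outnumber higher ones in every clone 10 pair, while the totals fall to 1500 and 236 regions at the lowest.

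Among regions of above-median accessibility, from which all ranked regions of a single clone are taken, the 10 gains of clone 8 with the largest fold change held 13.6 to 38.4 CPM in clone 8, against 1.46 to 4.06 CPM in wild type. A region had a median of 35 and 30 reads in these wild-type libraries, and the lowest of these wild-type levels correspond to fewer. Mean accessibility includes the clone's own libraries, so a gain in a clone helps its region to lie above the median. The region chr8:105235215-105235941 held 36.8 and 23.9 CPM in clone 8, against 1.46 and 3.71 CPM in wild type (log2 fold change 3.58, SE 0.35, adjusted p = 6.78e-15). At chr21:32931185-32932078 the level was 38.4 and 38.3 CPM in clone 8, against 3.69 and 2.99 CPM in wild type (3.51, SE 0.31, adjusted p = 8.16e-18). In clone 10 the groups overlapped at both sites, with 3.13 and 2.54 CPM at the first, against 3.15 and 1.87 CPM in wild type of set 2, and 1.74 and 2.90 CPM at the second, against 3.44 and 0.433 CPM in wild type. The 10 fold changes ran from 2.54 to 3.58 on the log2 scale. In clone 10, edgeR and DESeq2 called none of these 10, and 1 had an unadjusted p under 0.05. As edgeR called 0.743% of all regions in clone 10, a count of 0 is near the background. The difference between the clones, a test that uses the libraries by which the 10 were chosen, was called at all 10.

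The largest losses of clone 8, ranked without the run of neighbouring regions described below, left few reads in its libraries. At chr4:95004789-95005853 clone 8 had 0.204 and 0 CPM, against 9.32 and 9.68 CPM in wild type. This corresponds to 2 reads in clone 8 against 177 in wild type, a ratio of 0.0101 (exact 95% interval 0.00121 to 0.0370, counting error only). At chr20:15618473-15619397 the level was 0.306 and 0.181 CPM in clone 8, against 10.1 and 9.32 CPM in wild type (-5.27, SE 0.47, adjusted p = 1.33e-17). Another region nearby, chr20:15542180-15543127, fell to 1.63 and 1.63 CPM in clone 8, against 15.2 and 13.7 CPM in wild type (-3.15, SE 0.29). In clone 10 the first of these 3 held 11.8 and 9.24 CPM, against 11.3 and 9.95 CPM in wild type of set 2, so its groups overlapped. Of the 10 largest losses of clone 8, edgeR called 0 in clone 10, DESeq2 called 1, and 4 had an unadjusted p under 0.05. With 0.743% of all regions called by edgeR in clone 10, a count of 0 is again near the background. The difference between the clones, tested with the libraries that chose the 10, was again called at all 10.

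One loss of clone 8 spanned neighbouring sites. On chromosome 7, 8 consecutive regions between 3375825 and 3522492, a span of 146.7 kb, together held 1.12 and 0.0904 CPM in clone 8, which are 11 reads and 1 read, against 24.3 and 24.7 CPM in wild type of set 1. Clone 10 held 25.8 and 21 CPM there, and the other 54 libraries of the table lay between 8.67 and 30.2 CPM. All 8 regions were called lower in clone 8. No such run of at least 5 neighbouring regions under 10% of wild type was found in clone 10. Copy number and closed chromatin cannot be told apart from these counts.

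Clone 10 changed at fewer sites, and mostly downward. In clone 10, 1081 regions were called (0.743% of those tested), 801 of them lower (0.55%) and 280 higher (0.192%) in clone 10, and 848 were at least 2-fold. The median log2 fold change was -1.22 among the lower and 1.69 among the higher regions. Of the lower regions, 64.0% lay among the 25% of regions with the highest mean accessibility, and their median width was 834 base pairs, against 622 over all regions. The count fell to 267 when clone 10 replicate 1 was left out and to 236 when its replicate 2 was. It was 328 with wild-type replicate 5 left out, 626 with replicate 6 left out, and 713 with all wild-type libraries pooled.

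Of the 10 largest losses of clone 10 above median accessibility, 4 lay within about a megabase of each other on the long arm of chromosome 7. The region chr7:147687869-147689138 held 3.66 and 3.81 CPM in clone 10, against 41.4 and 44.3 CPM in wild type of set 2 (-3.52, SE 0.28, adjusted p = 6.15e-21). At chr7:146688390-146689319 the level was 2.44 and 4.71 CPM in clone 10, against 33.2 and 28.1 CPM in wild type (-3.10, SE 0.29), and at chr7:147600556-147601810 it was 5.57 and 1.81 CPM, against 29.8 and 25.8 CPM in wild type (-2.90, SE 0.28). The fourth, chr7:146976625-146977607, held 4.00 and 7.43 CPM in clone 10, against 33.4 and 34.5 CPM in wild type (-2.57, SE 0.28). In all 4 the groups were far apart. In clone 8, 2 of them were also lower: the third held 10.9 and 9.22 CPM, against 19.1 and 17.1 CPM in wild type of set 1 (-0.85, SE 0.22, adjusted p = 0.00933), and the fourth 4.99 and 3.8 CPM, against 10.1 and 8.49 CPM in wild type (-1.09, SE 0.28, adjusted p = 0.0076). The other 2 were not called in clone 8. The first of these gave a log2 fold change of -0.12 (adjusted p = 0.851), and the second held 14.7 and 13.2 CPM in clone 8, against 12.4 and 10.5 CPM in wild type (adjusted p = 0.63). The difference between the clones, a test that uses the libraries by which these sites were chosen, was called at all 4, with clone 10 lower. Wild type of set 2 also stood above that of set 1 there, by 1.27, 1.41, 0.62 and 1.86 on the log2 scale.

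Of the 10 largest losses of clone 10, 5 were also called lower in clone 8, where 1.33% of all regions were. Another 1 was called higher there, where 3.50% of all regions were. That region, chr12:91291081-91292346, held 15.3 and 14.8 CPM in clone 8, against 6.79 and 4.42 CPM in wild type of set 1, and 4.00 and 3.44 CPM in clone 10, against 18.3 and 24.2 CPM in wild type of set 2. The clones thus moved in opposite directions at this site.

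The largest gain of clone 10 above median accessibility was chr1:27677525-27678186, with 13.8 and 16 CPM in clone 10, against 2.29 and 2.88 CPM in wild type (2.51, SE 0.34, adjusted p = 5.02e-08). Clone 8 held 3.06 and 5.87 CPM there, against 3.59 and 4.66 CPM in wild type of set 1, and was not called. The region chr6:63443519-63444775 held 23 and 20.8 CPM in clone 10, against 5.16 and 4.33 CPM in wild type (2.21, SE 0.29), and its neighbour chr6:63450616-63452527 held 15.7 and 15.4 CPM, against 3.73 and 4.04 CPM in wild type (2.00, SE 0.32). Clone 8 was called higher at the first of these neighbours, with 5.91 and 2.98 CPM, against 2.33 and 1.2 CPM in wild type of set 1 (1.28, SE 0.35, adjusted p = 0.0132), and not at the other one (-0.07, SE 0.31). Of the 10 largest gains of clone 10, 2 were also called higher in clone 8, where 3.50% of all regions were.

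Both clones lost accessibility at 94 regions on 17 chromosomes. This is 4.84% of the lower regions of clone 8, where 0.55% of all regions were called lower in clone 10. It is 11.7% of the lower regions of clone 10, where 1.33% of all regions were called lower in clone 8. In 76 of the 94, all 4 knockout libraries lay below all 4 wild-type libraries. That count uses the values by which the regions were chosen, so it is no separate support, and its share over all regions was not counted. The median log2 fold change of the 94 was -1.38 in clone 8 and -1.59 in clone 10. The number lower in both clones was between 28 and 69 without any 1 of the 8 libraries. The clones were also compared with the other knockouts of their own set, without wild type. This called 3.14% of all regions lower in clone 8 and 0.45% in clone 10, and 29 of the 94 lower in both clones. It uses the clone libraries by which the 94 were chosen, so it is not an independent repeat.

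The shared loss with the highest mean accessibility among the 10 ranked first was chr16:61117233-61118450. It held 4.38 and 3.98 CPM in clone 8, against 23.2 and 20.6 CPM in wild type of set 1 (-2.39, SE 0.24, adjusted p = 8.01e-15), and 6.97 and 5.98 CPM in clone 10, against 36.1 and 33.2 CPM in wild type of set 2 (-2.42, SE 0.24, adjusted p = 4.52e-14). The groups were apart in both sets and the fold changes nearly equal. A pair of sites close by were lower in both clones as well. The region chr16:61057981-61058888 held 10.3 and 5.51 CPM in clone 8, against 23.7 and 21.3 CPM in wild type, and 8.88 and 5.98 CPM in clone 10, against 34.2 and 33.2 CPM in wild type. The region chr16:61271633-61272503 held 7.23 and 5.15 CPM in clone 8, against 18.3 and 17.8 CPM in wild type, and 4.00 and 5.62 CPM in clone 10, against 20.1 and 13 CPM in wild type. All 3 were among the 9 shared losses that were called in both clones whichever of the 8 libraries was left out. All 3 were also called lower in both clones against the other knockouts, a comparison that uses the same clone libraries.

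The first 2 shared losses by the smaller fold change lay on chromosome 21. At chr21:23448655-23449293 clone 8 held 0.407 and 0.723 CPM, against 4.17 and 4.78 CPM in wild type of set 1 (-2.93, SE 0.50), and clone 10 held 1.57 and 0.725 CPM, against 8.60 and 7.35 CPM in wild type of set 2 (-2.78, SE 0.48). At chr21:24406293-24406860 clone 8 held 0.509 and 0.723 CPM, against 3.98 and 3.82 CPM in wild type (-2.63, SE 0.55), and clone 10 held 1.39 and 1.09 CPM, against 7.59 and 7.06 CPM in wild type (-2.55, SE 0.54). The shared loss at chr7:147207898-147208590 was larger in clone 10, with 1.04 and 0 CPM, against 12.6 and 12.7 CPM in wild type (-4.54, SE 0.54), and held 1.12 and 0.904 CPM in clone 8, against 5.63 and 2.75 CPM in wild type (-2.06, SE 0.46). The plot of shared regions shows the levels in each library.

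**Figure D2:**
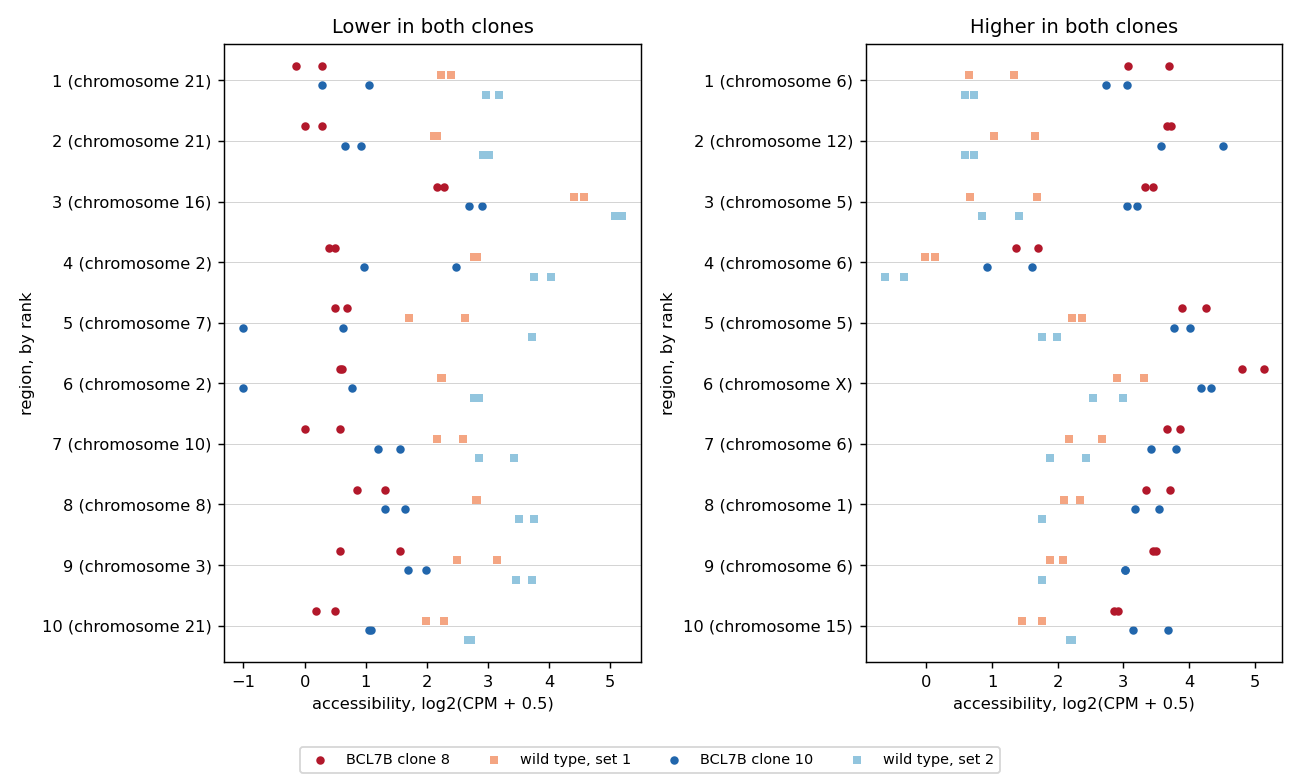
Accessibility, as log2(CPM + 0.5) on the horizontal axes, of the 10 regions ranked first among those lower (left) and higher (right) in both clones, 1 row per region. Circles are the 2 libraries of clone 8 (red) and clone 10 (blue), and squares the 2 wild-type libraries of their sets in the paler shade. In every row each clone's circles lie on the same side of the squares of its own set.

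Shared gains were fewer, at 26 regions on 10 chromosomes. They make up 0.511% of the higher regions of clone 8, where 0.192% of all regions were called higher in clone 10, and 9.29% of the higher regions of clone 10, where 3.50% of all regions were called higher in clone 8. In 24 of the 26 all 4 knockout libraries lay above all 4 wild-type libraries, again counted from the values by which the regions were chosen. The number of shared gains was between 12 and 24 without any 1 of the 8 libraries. Against the other knockouts of their set, with the same clone libraries, 12 of the 26 were also higher in both clones. That comparison called 10.8% of all regions higher in clone 8 and 0.329% in clone 10.

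The region chr6:27209147-27209744 led them, with 12.4 and 7.86 CPM in clone 8, against 1.07 and 2.03 CPM in wild type of set 1 (2.72, SE 0.44, adjusted p = 2.37e-06), and 7.84 and 6.16 CPM in clone 10, against 1.00 and 1.15 CPM in wild type of set 2 (2.69, SE 0.50, adjusted p = 0.000393). At chr12:133464013-133464569 the level was 12.2 and 12.7 CPM in clone 8, against 1.55 and 2.63 CPM in wild type, and 22.3 and 11.4 CPM in clone 10, against 1.15 and 1.01 CPM in wild type (2.59, SE 0.42, and 3.95, SE 0.49). No wild-type library exceeded 2.63 CPM at these sites.

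A pair of neighbouring sites on chromosome 5 were higher in both clones. At chr5:134824326-134825036 clone 8 held 18.7 and 14.4 CPM, against 4.17 and 4.66 CPM in wild type (1.91, SE 0.31), and clone 10 held 13.1 and 15.6 CPM, against 2.87 and 3.46 CPM in wild type (2.17, SE 0.35). At chr5:134825274-134825890 clone 8 held 10.4 and 9.58 CPM, against 2.72 and 1.08 CPM in wild type (2.35, SE 0.39), and clone 10 held 7.84 and 8.70 CPM, against 2.15 and 1.30 CPM in wild type (2.25, SE 0.43). The first of the pair, with chr6:27209147-27209744 and chr12:133464013-133464569, belongs to the 5 shared gains called in both clones whichever library was left out. Of the 10 ranked gains, the one with the highest level in clone 8 was chrX:105969649-105970723, with 34.6 and 27.6 CPM in clone 8, against 6.99 and 9.44 CPM in wild type (1.93, SE 0.26), and 19.7 and 17.6 CPM in clone 10, against 7.45 and 5.33 CPM in wild type (1.54, SE 0.29).

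Of 248 regions called in both clones, 120 moved the same way and 128 in opposite directions. Of the 128, 117 were higher in clone 8 and lower in clone 10, and 11 were lower in clone 8 and higher in clone 10. The 128 became 55 among calls of at least 2-fold and 23 to 156 without any 1 of the 8 libraries. The 117 are 2.30% of the higher regions of clone 8, against 0.55% of all regions, and 14.6% of the lower regions of clone 10, against 3.50% of all regions. At chr7:8482300-8482970 clone 8 held 16.4 and 11.9 CPM, against 3.30 and 3.71 CPM in wild type of set 1 (2.01, SE 0.31), and clone 10 held 1.04 and 1.81 CPM, against 4.16 and 6.78 CPM in wild type of set 2 (-1.93, SE 0.44). At chr9:127024789-127025428 clone 8 held 2.34 and 2.53 CPM, against 8.06 and 9.08 CPM in wild type (-1.80, SE 0.31), and clone 10 held 5.92 and 5.62 CPM, against 1.29 and 2.74 CPM in wild type (1.51, SE 0.39).

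**Figure D3:**
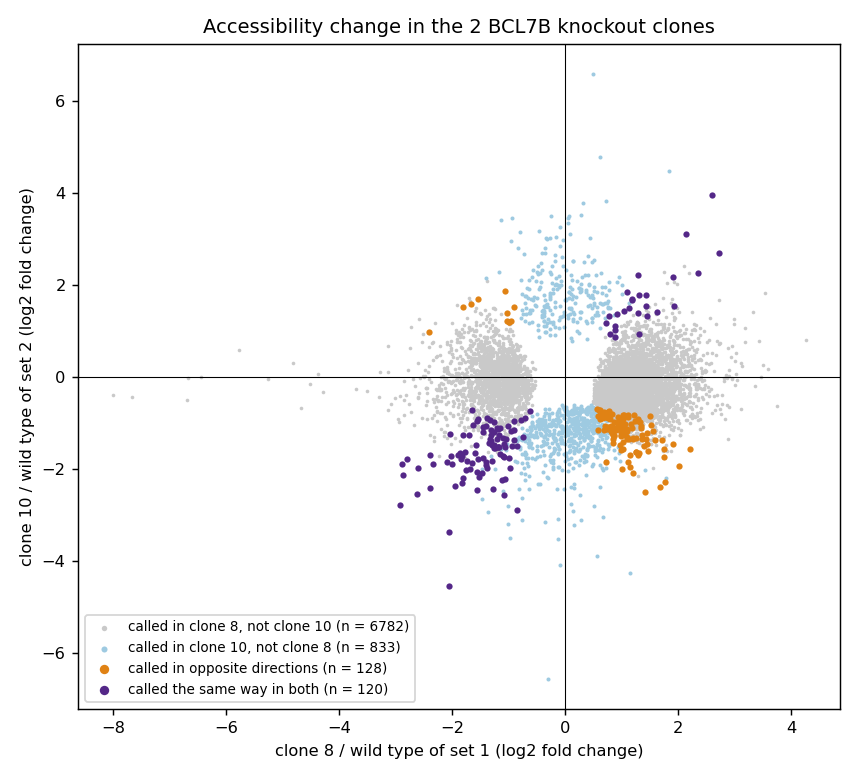
Log2 fold change of clone 8 over wild type of set 1 (horizontal axis) and of clone 10 over wild type of set 2 (vertical axis) for the 7863 regions called in at least 1 clone, 1 point per region. The 120 regions called the same way in both clones (purple) lie mostly at the lower left and the 128 called in opposite directions (orange) mostly at the lower right.

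The wild-type libraries of the 2 sets were not alike at these sites. With no gene removed, 8481 regions (5.83%) were called between wild type of set 2 and wild type of set 1, 6244 (4.29%) higher and 2237 (1.54%) lower in set 2. Of the 117 regions, 72.6% were called higher in wild type of set 2 than in that of set 1, which shares those libraries with both contrasts, whereas 22.3% of the 94 shared losses and 7.69% of the 26 shared gains were called so. The lists of each clone, which also share libraries with this comparison, carried the difference too. Of the 5089 gains of clone 8, 36.3% were called higher in wild type of set 2, as were 42.3% of the 801 losses of clone 10. Of the 280 gains of clone 10, 34.3% were called lower in wild type of set 2, as were 13.7% of the 1941 losses of clone 8. The part of this difference in the opposite calls, and in the calls of each clone, was not tested. A direct test of the difference between the effects of the clones called 6270 regions (4.31%), with clone 8 above clone 10 at 4959 (3.41%) and below it at 1311 (0.901%). It called 3 of the 94 shared losses (3.19%), near the share of all regions. Of the 26 shared gains edgeR and DESeq2 called 0, and 2 had an unadjusted p under 0.05. The shared regions were chosen, with the same libraries, for moving the same way in both clones. These low counts therefore give no separate support for agreement between the clones.

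Changes also differed between chromosomes. In clone 8 the median log2 fold change over all tested regions was -0.25 on chromosomes 16 and 19, -0.22 on chromosome 17 and -0.15 on chromosome 22, and 0.12 on chromosome 13 and 0.11 on chromosome 4. On chromosome 19, 99 of 3408 tested regions were lower (2.9%) and 9 higher (0.26%) in clone 8. On chromosome 4, 86 of 9649 were lower (0.89%) and 556 higher (5.76%). Over all regions, 1.33% were lower and 3.50% higher. In clone 10 the medians ran from -0.10 on chromosome 4 to 0.11 on chromosome 15. With no gene removed, wild type of set 2 against that of set 1 gave the same signs as clone 8 on the chromosomes named for it. Its medians were -0.19 on chromosome 19, -0.18 on 22, -0.16 on 16, -0.14 on 17, 0.08 on 13 and 0.07 on 4. Wild type of set 1 is the reference in both comparisons, and its part in the clone 8 medians was not tested. Chromosome 19 took 2.97% and 3.30% of reads in clone 8, against 3.65% and 3.85% in wild type of set 1, and 3.48% and 3.46% in clone 10, against 3.41% and 3.24% in wild type of set 2. Clone 8 replicate 1 was the lowest of the 56 libraries in this share, and the other 52 libraries lay between 3.22% and 4.41%. Without clone 8 replicate 1 the chromosome 19 median was -0.188, and over 8 alternatives (other scalings, pooled wild type and each library left out) it was -0.356 to -0.175, while the medians of chromosomes 13 and 4 were above 0 in all 8.

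**Figure D4:**
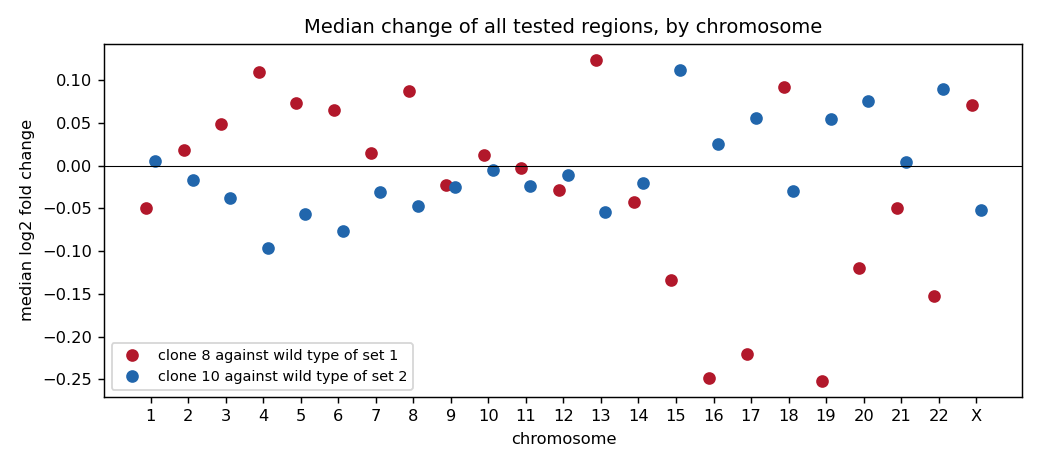
Median log2 fold change over all tested regions (vertical axis) on each chromosome (horizontal axis), for clone 8 (red) and clone 10 (blue) against the wild type of their sets. Clone 8 reaches -0.25 on chromosomes 16 and 19, where clone 10 lies slightly above 0.

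Among 588 windows of 5 Mb, 2 had a median beyond 0.5 on the log2 scale in clone 8 and none had in clone 10. The stronger was chromosome 21 from 20 to 25 Mb, with 101 tested regions. Its summed level was 273 and 236 CPM in clone 8, against 395 and 371 CPM in wild type of set 1, and 363 and 360 CPM in clone 10, against 540 and 550 CPM in wild type of set 2. The median log2 fold change was -0.81 in clone 8, with 24 regions lower and 3 higher, against 1.33% and 3.50% of all regions. In clone 10 it was -0.49, with 13 lower and 0 higher, against 0.55% and 0.192%. Of the 94 shared losses, 9 lie there. The median of this window was also below 0 in 19 of the 24 other clones, with a range of -1.54 to 0.275. Most of these clones were set against the same 2 wild-type libraries of set 1 as clone 8. Their medians are therefore not independent of one another. The other window was chromosome 16 from 85 to 90 Mb in clone 8. Its median was -0.52, and 45 regions of 370 were lower, against 1.33% of all regions. Wild type of set 2 against that of set 1 had a median of -0.25 there, with 8 regions lower and 0 higher. Over all regions that comparison called 1.54% lower and 4.29% higher. In the chromosome 21 window its median was 0.44.

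The window with most losses in clone 10 was chromosome 7 from 145 to 150 Mb. There 15 of 202 regions were lower and 0 higher, against 0.55% and 0.192% of all regions. The summed level was 1249 and 1254 CPM in clone 10, against 1802 and 1638 CPM in wild type of set 2. In clone 8, 7 regions were lower and 2 higher there, against 1.33% and 3.50% of all regions. The sums, 1659 and 1454 CPM in clone 8, overlapped with 1582 and 1477 CPM in wild type of set 1. All 7 losses of clone 8 in this window were shared with clone 10. Some other clones had as many losses in the window or more. In SMARCA4 clone 4, 32 regions were lower, and in SMARCA4 clone 6, 22, against 11.2% and 10.3% of all regions. In ARID2 clone 9 and SMARCC1 clone 12, 16 each were lower, against 1.11% and 4.19%. In ARID1A clone 10, 15 were lower, against 7.02%, and in the rest of the 24 other clones at most 12. The counts in SMARCA4 clone 6 and ARID1A clone 10 were near these shares. The SMARCA4, ARID2, SMARCC1 and ARID1A clones were all set against the same 2 wild-type libraries of set 1. The median log2 fold change in the window was -0.28 in BCL7B clone 10, and between -0.18 and 0.0858 in the 24 other clones.

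The band that holds BCL7B was taken as 72 to 74 Mb of chromosome 7. Its 116 regions summed to 849 and 921 CPM in clone 8, against 969 and 949 CPM in wild type of set 1, and to 839 and 826 CPM in clone 10, against 877 and 741 CPM in wild type of set 2. In clone 8, 1 region was called lower and 1 higher, where 4.83% of all regions were called. In clone 10 edgeR and DESeq2 called 0 of 116, with 11 at an unadjusted p under 0.05, and with 0.743% of all regions called a count of 0 is near the background. Accessibility does not check a frameshift knockout, so these values say nothing of whether the protein was lost.

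BCL7A, the paralog, was knocked out in 1 clone of set 1. In a direct comparison, BCL7B clone 8 differed from BCL7A clone 10 at 9908 regions (6.81%), 6537 (4.49%) higher and 3371 (2.32%) lower in the BCL7B clone. Clone 8 also differed from the mean of the other knockouts of set 1 at 20280 regions (13.9%), 15704 (10.8%) higher and 4576 (3.14%) lower. BCL7B clone 10 differed from the other knockouts of set 2 at 1134 regions (0.779%), 479 (0.329%) higher and 655 (0.45%) lower.

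The BCL7A knockout shares no library with BCL7B clone 10 or its wild type. Of the 801 losses of BCL7B clone 10, 62 (7.74%) were also called lower in the BCL7A knockout, against 0.189% of all regions, and of its 280 gains 33 (11.8%) were called higher there, against 0.278% of all regions. Such shares were not particular to the BCL7A knockout. Of the same losses, 63 (7.87%) were lower and 23 (2.87%) higher in BRD7 clone 10, against 0.312% and 0.383% of all regions. In PHF10 clone 11, 58 (7.24%) were lower and 4 higher, against 0.243% and 0.148%. Of the gains, 27 (9.64%) were higher in BRD7 clone 10 and 0 lower. Of the 10 largest losses of clone 10, 6 were called lower without BCL7A, 9 in ARID2 clone 9 and 8 in SMARCA4 clone 4. The shares of all regions lower there were 0.189%, 1.11% and 11.2%. At the chromosome 7 sites, BCL7A knockout libraries held 7.46 and 4.74 CPM at chr7:147687869-147689138, 3.44 and 2.37 CPM at chr7:146688390-146689319 and 4.21 and 3.88 CPM at chr7:147600556-147601810, with log2 fold changes of -1.54, -1.98 and -2.16. At chr16:61117233-61118450, a loss of both BCL7B clones, they held 28.6 and 22.2 CPM, and the BCL7A comparison gave 0.21 (adjusted p = 0.85).

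**Figure D5:**
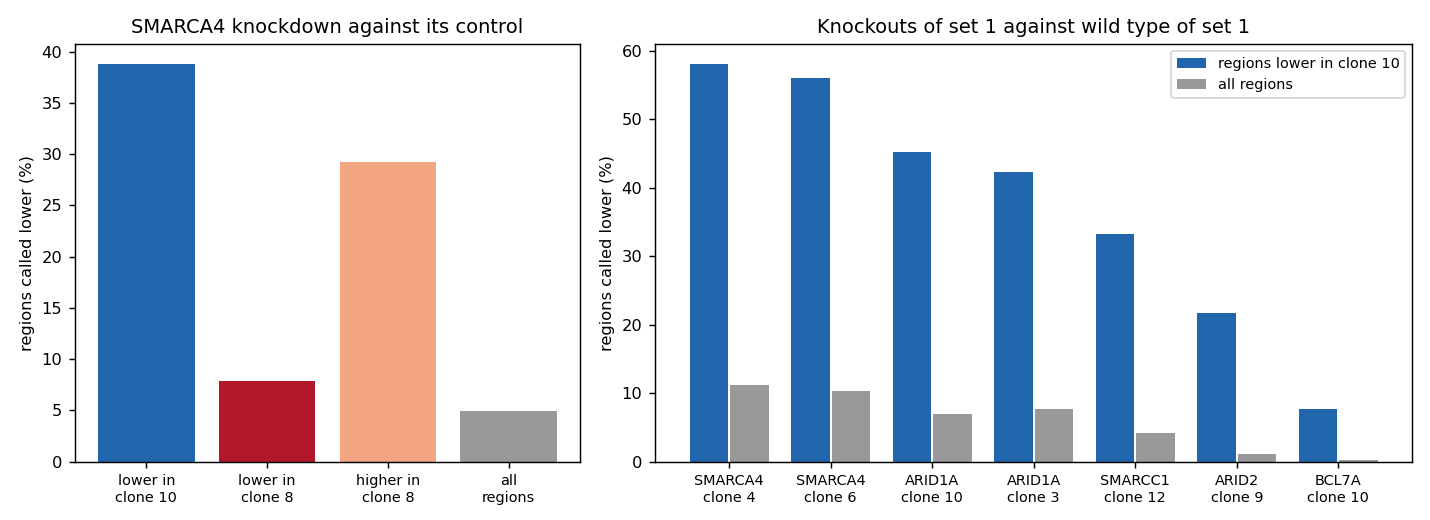
Share of regions called lower (vertical axes, %) in libraries that chose none of the lists. Left, SMARCA4 knockdown, for the regions lower in clone 10, lower in clone 8 and higher in clone 8, and for all regions; right, 7 knockout clones of set 1, for the regions lower in clone 10 (blue) and for all regions (grey). The clone 10 losses stand above all regions in each of these knockouts.

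The losses of clone 10 were also losses of several other BAF knockouts of set 1, none of which shares a library with clone 10. They were called lower in SMARCA4 clones 4 and 6, which lack the ATPase, at 465 (58.1%) and 449 (56.1%) of 801, against 11.2% and 10.3% of all regions. In ARID1A clones 10 and 3 the counts were 362 (45.2%) and 339 (42.3%), against 7.02% and 7.72%, and without SMARCC1, a core scaffold subunit, 266 (33.2%), against 4.19%. Without ARID2, the subunit that marks the PBAF form, 174 (21.7%) were lower, against 1.11%. Since these regions are more accessible than most, the comparison was repeated within the 25% most accessible regions: there 306 of 513 (59.6%) were lower in SMARCA4 clone 4, against 19.2%, and 117 (22.8%) in the ARID2 knockout, against 2.58%. The direction was not the same in every knockout. In ARID1B clone 7, 254 of the 801 (31.7%) were higher, against 6.03% of all regions, and 94 (11.7%) lower, against 3.19%. In DPF2 clone 4, 76 (9.49%) were higher, against 1.42%, and 20 (2.50%) lower, against 0.374%. Counts were about equal both ways in BCL11B clone 10, with 34 higher and 33 lower, and in SMARCD3 clone 12, with 40 higher and 39 lower. All these knockouts were set against the same 2 wild-type libraries of set 1, so their shares are not independent of one another.

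A separate table holds SMARCA4 knockdown in wild-type cells, with 2 libraries a group, in which 4.96% of regions were lower and 0.773% higher than in control knockdown. Of the losses of clone 10, 311 (38.8%) were lower after SMARCA4 knockdown and 3 higher. With all wild-type libraries pooled this share fell to 20.2%, 105 of 519 losses. Of the 94 shared losses, 40 (42.6%) were lower and 0 higher, with a median log2 fold change of -1.01, against 0.06 over all regions. Of the 26 shared gains, 1 was lower and 0 higher.

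The same knockdown was set against the lists of clone 8. Of the 5089 gains of clone 8, 1488 (29.2%) were lower after SMARCA4 knockdown and 10 higher, with a median of -0.80, while of its 1941 losses 153 (7.88%) were lower and 54 higher, with a median of -0.05. Within the 25% most accessible regions the shares were 32.0% of the gains and 9.18% of the losses, against 8.22% of all regions. Without clone 8 replicate 1, 26.9% of 930 gains and 15.8% of 570 losses were lower, and on the authors' normalized values 17.3% of 9061 gains and 5.87% of 3099 losses were. With all wild-type libraries pooled the order turned, at 13.7% of 3187 gains and 17.3% of 2075 losses. The regions higher in clone 8 and lower in clone 10 had the highest share, 56 of 117 (47.9%). Within the 25% most accessible regions, however, their share was 38 of 86 (44.2%), close to 21 of 48 (43.8%) of the shared losses.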

How the data were processed

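ATAC-seq of HAP1 cells, a human cell line, was analysed from tables of counts that the authors deposited, whole numbers of reads per region that were not scaled for depth. The submitters' processing notes list Bowtie2 (version 2.2.4), MACS2 (version 2.1.1.20160309), Picard (version 1.118) and the build hg19. How regions were merged and reads counted is not given in the sources used here. Normalized accessibility that the authors also deposited, taken as log2, covers 48 libraries without clone 10 and served only as an alternative. Of the count columns, 2 match no listed sample and were not used, and wild-type replicates 3 and 4 were not analysed here.

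Counts were tested in R 4.3.3 with edgeR 4.0.16 (quasi-likelihood, TMM, default expression filter, Benjamini-Hochberg adjustment over all regions) in 1 fit of 56 libraries and 28 groups with 28 residual degrees of freedom. The knockdown table was fitted apart, with 145617 regions and 8 residual degrees of freedom. DESeq2 1.42.0 and limma 3.58.1 gave alternatives, and the fit was tested on simulated data. Tests are 2-sided, and SE is the standard error of a log2 fold change. Regions named had passed the threshold, lay above median accessibility, had groups that did not overlap, and were the 10 with the largest fold change per direction. The run of neighbouring regions lost in clone 8 on chromosome 7 was left out of the rankings. Shared regions were the 10 per direction, and opposite ones the 5 per direction, ranked by the smaller of both fold changes; some others of the regions called whichever library was left out, and the neighbours of named sites, were chosen after their values were seen. The gene lists planned for BAF subunits and the Wnt pathway and a check of cell markers could not be applied, since regions carry no gene names. The clones, lists and tests were chosen with earlier results of these data known. In the 8 libraries a region had a median of 20 to 39 reads, and intervals cover counting error only. Alternatives were other scalings, filters, tests and wild-type references, a replicate block, and each library left out.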

Additional observations from a re-analysis of the deposited data

Results flagged for a closer look

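The effects of the clones differed at 6270 regions by the test of the difference between them, which compares clone 8 over wild type of set 1 with clone 10 over wild type of set 2. Regions called higher in one clone and lower in the other pass that test by the way they were chosen, as all 117 and all 11 did, so it adds nothing for the 10 of them named by rank. The clone 8 effect exceeded that of clone 10, on the log2 scale, by 3.95 at chr7:8482300-8482970, 4.05 at chr11:21129852-21130486, 3.49 at chr4:131356614-131357546, 4.05 at chr4:105727935-105728591 and 3.77 at chr9:8916563-8917255. In the other direction the difference was -3.25 at chr11:90323230-90323898, -3.22 at chr12:65138049-65138900, -3.32 at chr9:127024789-127025428, -2.93 at chr2:186509528-186510639 and -2.25 at chr19:18539603-18540495.

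At chr11:21129852-21130486 clone 8 held 7.84 and 5.33 CPM, against 2.23 and 1.55 CPM in wild type of set 1, and clone 10 held 1.22 and 3.08 CPM, against 10.3 and 10.5 CPM in wild type of set 2. At chr19:18539603-18540495 clone 8 held 5.6 and 5.97 CPM, against 10.8 and 13 CPM in wild type, and clone 10 held 16.2 and 13.6 CPM, against 7.02 and 5.77 CPM in wild type. At both sites the wild-type libraries of the sets also stood apart from each other.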

How the results depend on the processing

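Counts rested on single libraries. Leaving out each of the 8 libraries in turn gave 1500 to 7143 regions for clone 8, 236 to 1135 for clone 10, 1524 to 8225 for the difference between them, 28 to 69 lower and 12 to 24 higher in both clones, and 23 to 156 called in opposite directions. It gave 5418 to 20347 for clone 8 against the other knockouts, 315 to 1179 for clone 10 against the other knockouts, 3284 to 9984 for clone 8 against BCL7A clone 10, and 2800 to 8563 between the wild-type sets. With all wild-type libraries pooled, clone 10 had 713 regions. On the authors' normalized values clone 8 had 12160 regions, 3099 lower and 9061 higher, and relative to their median, an alternative chosen after seeing the data, 12206, 6508 lower and 5698 higher. Among calls of at least 2-fold, clone 8 differed from the other knockouts at 7369 regions, and 55 regions were called in opposite directions. The cause of these shifts was not tested, beyond the fewer libraries or the higher threshold. Among the regions named by rank, no direction turned under an alternative that gave a value. DESeq2 gave no adjusted p for some of them in clone 10, the authors' normalized values cover clone 8 alone, and sites described only as neighbours were not followed. In clone 8 the call was lost in 42 cases and in clone 10 in 86.

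Same-numbered libraries of set 1 deviated together only weakly: for clone 8 and wild type r was 0.15 over the regions of above-median accessibility, and over all pairs of groups it ran from -0.16 to 0.26. The numbers were therefore not taken as pairs. With the replicate block, 7418 regions were called in clone 8, 1247 in clone 10, 104 lower and 31 higher in both, and 159 in opposite directions.

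The libraries of clone 10 had fewer counts than those of clone 8 and correlated less with each other, and the part of depth in its smaller number of calls was not tested. The shared counts could not be computed with pooled wild type, where the clones would share controls, nor on the authors' normalized values, which lack clone 10.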
